A study of Homo sapiens with 2 samples.

Results

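CREB peaks at transcription start sites (TSS) in NGP cells numbered 264 of the 4938 peaks on chromosomes 1 to 22 and X, which is 5.35% (95% exact interval 4.74 to 6.01). A peak was counted here when its summit lay within 1000 bp of a refGene TSS in the table that the authors deposited with their peaks, on either strand. Each such TSS peak was used once, with its nearest TSS, and 16 peaks on chromosome 21 below 13 Mb were left out. Position alone chose the peaks, so their fold enrichment, their sequence and their genes played no part in the choice.

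NGP is an established human neuroblastoma cell line, labelled with no treatment or genetic change, grown in medium with fetal bovine serum and harvested as cultures neared confluency. Chromatin immunoprecipitation with sequencing (ChIP-seq) was done once with a CREB antibody, beside 1 input library of DNA that was not immunoprecipitated. Per the series' design text, the study looked for genes downstream of CAMKV, a relative of the calmodulin-dependent kinases, and CREB. With 1 ChIP library there is no replicate error and no test between conditions. Intervals below are exact 95% intervals for counting error alone, because 1 library gives no error between replicates. No molecular identifiers mark the reads.

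CREB is a basic leucine zipper protein that binds DNA as a dimer and is switched on by phosphorylation after a rise in cAMP or calcium. Its classic target is the cAMP response element (CRE), the palindrome TGACGTCA, and it also binds one arm of it, TGACG, called the CRE core here. The CpG in the middle of the CRE can be methylated in cells, which is known to weaken CREB binding, and CREs that are open to CREB lie mostly in CpG-rich promoters close to the TSS. In neurons CREB is best known for the rapid induction of genes such as FOS.

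The sequences that carry the main result are shown first. They are stretches upstream of the start of members with a CRE or a CRE core, which lies near the summit in most. Each is read 5′ to 3′ along the gene's own strand from RefSeq (GRCh38.p14, the build of the peaks). Capitals mark the CRE or CRE core, on either strand, and further CRE cores in a stretch are left in lower case. VPS37B and PARP2 are the strongest TSS peaks with a CRE, RBM42 and PPM1D have the CRE close to the summit, AP2B1 holds a pair of CREs, and RFC3 and NUP133 belong to gene groups described below.
VPS37B, chr12:122896151-122896218, minus strand: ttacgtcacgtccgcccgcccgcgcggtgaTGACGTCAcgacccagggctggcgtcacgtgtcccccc
PARP2, chr14:20343591-20343634, plus strand: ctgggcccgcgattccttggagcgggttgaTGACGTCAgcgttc
RBM42, chr19:35628982-35629035, plus strand: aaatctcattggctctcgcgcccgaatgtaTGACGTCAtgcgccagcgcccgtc
PPM1D, chr17:60600102-60600169, plus strand: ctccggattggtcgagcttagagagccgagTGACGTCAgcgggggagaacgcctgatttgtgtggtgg
RFC3, chr13:33818041-33818108, plus strand: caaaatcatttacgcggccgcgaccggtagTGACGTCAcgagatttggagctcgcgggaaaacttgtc
NUP133, chr1:229508342-229508393, minus strand: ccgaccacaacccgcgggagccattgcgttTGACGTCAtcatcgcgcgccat
AP2B1, chr17:35587206-35587273, plus strand: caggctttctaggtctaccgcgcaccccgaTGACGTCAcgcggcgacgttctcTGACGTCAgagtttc
The next set shows CRE cores. VMP1, TSG101 and ZNF561 carry the run gaag directly before the TGACG, and gaag is also the end of the ETS motif CCGGAAG searched below (in ZNF561 the TGACG belongs to a full CRE). FOS is the textbook CREB target, VPS4B has a CRE core 16 bp from the summit, and EEF1A1 is the strongest of all TSS peaks.
VMP1, chr17:59707614-59707653, plus strand: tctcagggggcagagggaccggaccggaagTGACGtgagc
TSG101, chr11:18526943-18526996, minus strand: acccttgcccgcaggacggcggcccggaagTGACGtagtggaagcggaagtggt
ZNF561, chr19:9621233-9621285, minus strand: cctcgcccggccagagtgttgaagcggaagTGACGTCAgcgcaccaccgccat
FOS, chr14:75278734-75278798, plus strand: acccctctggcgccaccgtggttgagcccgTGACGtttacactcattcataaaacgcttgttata
VPS4B, chr18:63422486-63422550, minus strand: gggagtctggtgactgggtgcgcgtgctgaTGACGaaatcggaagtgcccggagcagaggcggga
EEF1A1, chr6:73521184-73521248, minus strand: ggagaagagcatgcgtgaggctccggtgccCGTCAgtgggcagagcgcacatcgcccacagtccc
From the motif's centre to the summit was 10.5 bp at VPS37B, 32.5 bp at PARP2, 14.5 bp at RFC3, 2 bp at VMP1 and 16 bp at VPS4B. It was 101 bp at EEF1A1, whose window holds 2 CRE cores, and the other lies farther from the summit.

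The 264 TSS peaks lay within 1000 bp of 345 gene symbols. A single symbol was in reach of 189 peaks, 2 symbols of 69, 3 symbols of 4, and 4 or more of 2. The nearest gene was protein-coding for 211 peaks and a long noncoding RNA gene (lncRNA) for 27. It was a transcribed pseudogene for 13, a miRNA for 5, and a Y RNA, an rRNA and a small nuclear RNA for 1 each, and 5 symbols matched no RefSeq gene. Counting every TSS in reach, 222 peaks touched 265 of 19974 protein-coding genes, which is 1.33%. This is the background against which the counts of gene groups below are read.

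Summits gathered close to the TSS. The median distance was 103 bp (quartiles 51 to 250 bp). Within 100 bp lay 129 summits (48.9%), within 200 bp 185 (70.1%) and within 500 bp 230 (87.1%), although the choice allowed 1000 bp. Upstream of the TSS lay 158 summits, downstream 105, and 1, at PSMB2, on the TSS itself. Between 501 and 1000 bp, a stretch of 500 bp, lay 34 peaks. The next stretches were 1000 bp wide and so not directly comparable: the list held 60 further peaks from 1001 to 2000 bp and 50 from 2001 to 3000 bp. Fold followed the same order only loosely: the median was 6.41 for summits up to 100 bp from the TSS, 5.06 from 101 to 200 bp, 5.46 from 201 to 500 bp and 4.86 from 501 to 1000 bp.

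**Figure D1:**
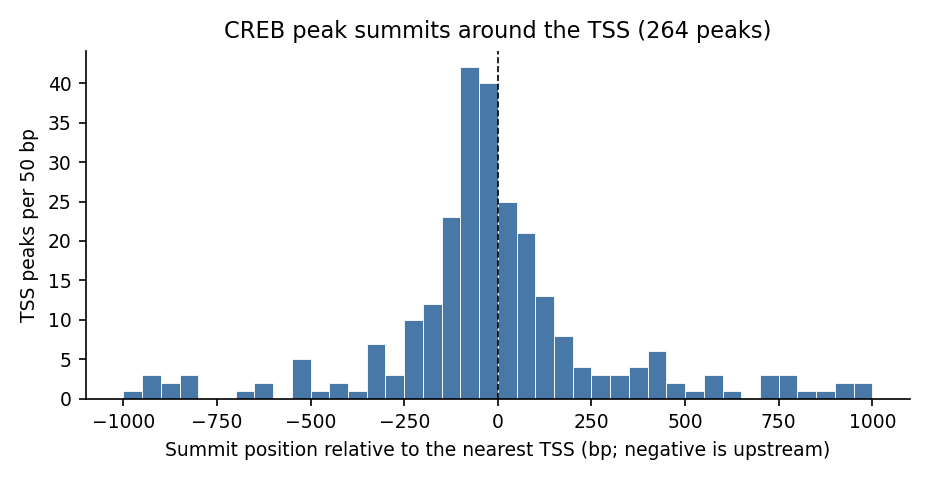
Number of TSS peaks per 50 bp (vertical axis) by the position of the summit relative to the nearest TSS in bp (horizontal axis, negative is upstream, dashed line at the TSS), for 264 peaks. The bars are tallest in the 100 bp before the TSS, and 129 summits lie within 100 bp on either side.

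At the edge of the choice, the members just inside were EPN3 at 956 bp (fold 4.01), RAB5IF at 961 bp (4.90) and SNAR-A1 at 997 bp (4.01). The peaks just outside lay near CMC2 and ZNF165, both at 1011 bp with a fold of 4.01, and near LINC02564 at 1010 bp. The LINC02564 peak was strong, with a fold of 50.3 and 97 fragments, and its summit lay at position 10197 of chromosome 10, close to the chromosome's end.

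Most TSS peaks rested on few DNA fragments. Fold here is the authors' own value per peak, the pileup at the summit plus 1 over the background the peak caller expected plus 1, and the number of fragments was recovered from the fold and p-value of each peak. The median fold was 5.62 (quartiles 4.82 to 7.22), the median summit held 6 fragments (quartiles 5 to 9), and 207 peaks (78.4%) held 9 or fewer. The fewest was 4. The median expected background was 0.277 fragments. A fold of 10 or more was reached by 25 peaks (9.47%), and 94 stayed below 5.

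TSS peaks stood somewhat higher than peaks farther from genes. A −log10 q of at least 5 was reached by 42.0% of TSS peaks (36 to 48.3), by 22.4% of the 313 peaks at 1 to 10 kb from a TSS (17.9 to 27.4) and by 18.4% of the 630 peaks at 10 to 50 kb (15.5 to 21.7). The median folds were 5.62, 4.81 and 4.63. For the 3492 peaks with no TSS within 50 kb the median fold was 5.32 and the share 27.5%. Many of those lie in 1 Mb windows with 10 or more peaks, called dense windows here. Outside dense windows the same kind of peak had a median fold of 4.56 and a share of 13.3%, against 5.62 and 42.6% for the 251 TSS peaks there.

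EEF1A1, which codes for a highly abundant translation elongation factor, had a peak unlike any other at a TSS. It held 833 fragments (777 to 892) at chr6:73520976-73521255, a fold of 634. PGK1, a glycolytic enzyme gene on the X chromosome, came next with 61 fragments (46.7 to 78.4) and a fold of 47.1, and its window holds no CRE core. PARP2, the third, had a fold of 23.5. Whether all reads at EEF1A1 and PGK1 came from these loci was not tested.

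The 20 strongest TSS peaks were led by genes of varied function. After EEF1A1, PGK1 and PARP2 came the noncoding gene FAM230H (fold 19.5), VPS37B (18.4) and SNX16 (17.7). VPS37B is a subunit of a complex that sorts cargo at endosomes, and SNX16 is a sorting nexin. MIR30A, the gene of a microRNA, had a fold of 15.3, and VMP1, a membrane protein of the endoplasmic reticulum needed for autophagy, 15.2. VIM-AS1 (14.4) is antisense to the vimentin gene, and the peak of 13.6 lay between MIR4453HG and FBXW7, which picks substrates for a ubiquitin ligase. TSPAN31 (13.1), LOC100996637 (12.8), TMEM80 (12.6), LINC00265 (12.3), ZFPL1 (12.2), EMC3-AS1 and PGAP2 (both 12.1), PEF1 and STAMBP (both 12) and LINC02606 (11.8) completed the group. Of these 20, 17 had a promoter window in the reference, and 7 of the 17 held a CRE, 5 a CRE core only and 5 neither.

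**Figure D2:**
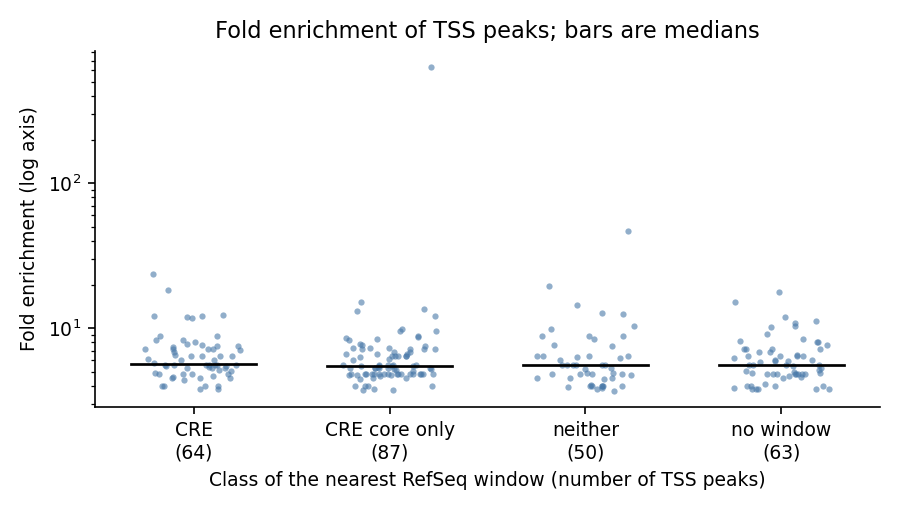
Fold enrichment of each TSS peak (points, log axis) by the sequence class of its nearest RefSeq promoter window, with the number of peaks in parentheses and black bars at the medians. The medians lie close together, at 5.69 for CRE, 5.50 for CRE core only and 5.62 for neither, while EEF1A1 at 634 stands apart among the peaks with a CRE core only.

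Promoter sequence was examined in RefSeq windows of 300 bp, from 250 bp before to 50 bp after a gene's start. A RefSeq start lay within 1000 bp of the summit for 201 TSS peaks, in 197 distinct windows, and for 125 peaks the summit itself lay inside the window. The other 63 peaks had no window and stay out of what follows. All 34789 windows of the table, alternative starts included, served as background. Both strands were searched for each motif, and a full CRE counts as 2 CRE cores.

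A full CRE stood in 62 of the 197 windows, 31.5% (25.1 to 38.5), against 1.84% of all windows, or 17.1 times as often. A CRE core stood in 148, 75.1% (68.5 to 81.0), against 24.5%. Where the summit lay inside the window the shares were 40.8% (32.1 to 49.9) and 88.8% (81.9 to 93.7). With up to 1 mismatch outside the inner CG, a CRE was found in 49.2% of members' windows and 6.14% of all. The letters of other factors differed less from the background than the full CRE, or went the other way. The ETS motif CCGGAAG was in 24.4% against 10.2%, the YY1 motif AAGATGGCG in 6.60% against 1.76%, and the NFY box CCAAT in 46.2% against 34.6%. By ratio to all windows, YY1 (3.76 times, 13 windows) stood above the CRE core (3.07 times). The SP motif GGGCGG was in 68.0% against 44.9%. TGANTCA, the AP-1 site that differs from the CRE by 1 base of spacing, was in 2.03% against 7.69%, and TATAAA in 5.08% against 11.6%. The E-box CACGTG (8.12% against 7.24%), the NRF1 motif GCGCATGC (2.54% against 3.02%) and the ZNF143 motif ACTACAA (2.54% against 2.76%) were near this background.

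Base composition moved with these shares. Windows of TSS peaks had a median GC content of 64.3% against 58.7% for all windows. Their median ratio of observed to expected CpG was 0.894 against 0.578. With CpG-rich defined as a ratio of at least 0.6, 92.4% were CpG-rich against 48.8%. Set beside the 16981 CpG-rich windows alone, the CRE remained 9.92 times as frequent (31.5% against 3.17%), while the CRE core stood at 75.1% against 35.1%, ETS at 24.4% against 17.9%, YY1 at 6.60% against 3.41%, SP at 68.0% against 76.0% and NRF1 at 2.54% against 5.55%. The NFY box stood at 46.2% against 32.2%, so its excess was not smaller beside CpG-rich windows. The TATA motif (5.08% against 4.52%) and AP-1 (2.03% against 3.06%) came close to the CpG-rich background.

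**Figure D3:**
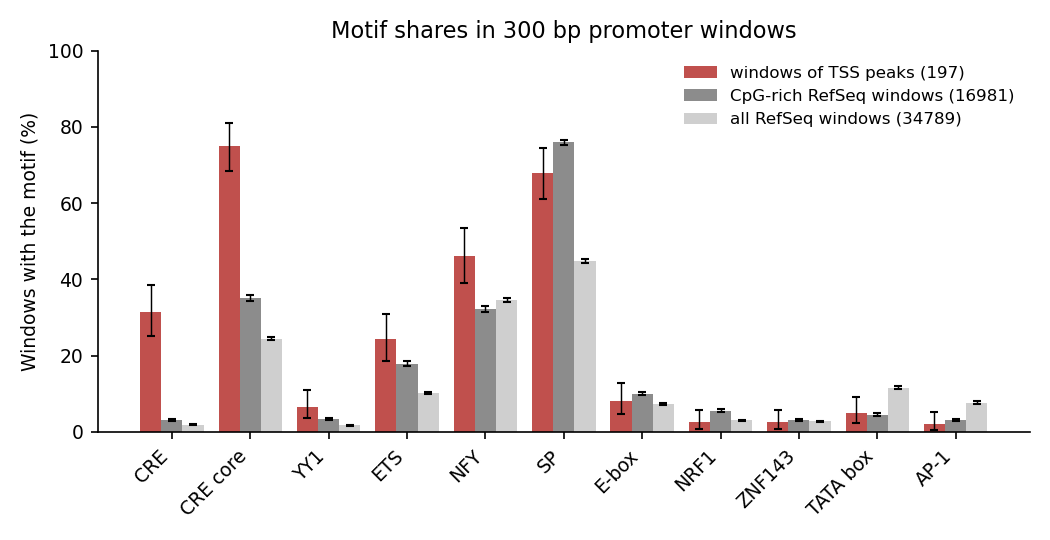
Share of 300 bp promoter windows that hold each motif in percent (vertical axis), for windows of TSS peaks, CpG-rich RefSeq windows and all RefSeq windows, with exact 95% intervals. The CRE bar of the TSS peaks, 31.5%, stands over 3.17% and 1.84%, and the SP bar lies below that of the CpG-rich windows.

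A search without a preset motif gave the same letters. Of 184 8-mers found in 10 or more of the 125 windows with the summit inside, each with its reverse complement, all 18 that hold a CRE core ranked among the first 20 by their excess over all windows. The palindrome TGACGTCA was the third, in 40.8% of windows against 1.84%. ACGTCACG, with a CRE core on the opposite strand, was the second, in 28.8% against 1.03%. The first without a CRE core, GAAGTGAC at rank 18, is GAAG followed by a CRE core without its last base.

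Summits lay near these motifs. In the 51 windows with a CRE and the summit inside, the median distance from the summit to the nearest CRE was 35.5 bp (quartiles 15 to 59 bp), and 35 summits lay within 50 bp. For the 111 windows with a CRE core it was 29 bp (14 to 54.5 bp). Per kb of window, CREs were 4.04 times as frequent within 50 bp of the summit as beyond it (3.11 against 0.769 per kb) and CRE cores 2.55 times (10.9 against 4.29). For the NFY box the rates were 3.65 and 2 per kb, for ETS 1.25 and 1.01, and for SP 3.69 and 3.73, so the SP motif showed no such gathering. For YY1 they were 0.417 and 0.163 per kb, a ratio of 2.55 from 5 sites within 50 bp and 4 beyond. CREs and summits both crowd near the TSS, and their shared position was not separated from a direct distance to the motif.

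**Figure D4:**
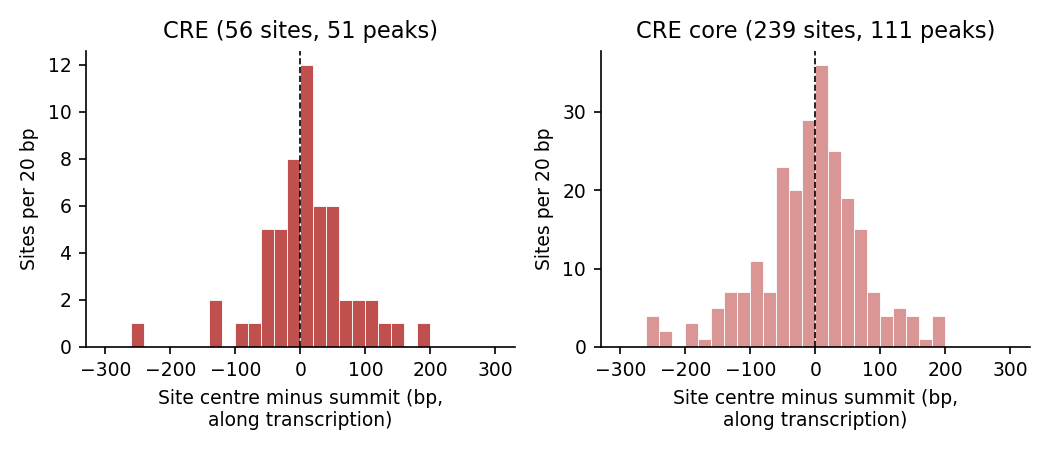
Number of CRE sites (left) and CRE core sites (right) per 20 bp (vertical axes) by the distance from the summit to the centre of the site in bp along the direction of transcription (horizontal axes, dashed line at the summit), in windows with the summit inside. Both distributions are highest at the summit, with a median distance to the nearest site of 35.5 bp for the CRE and 29 bp for the CRE core.

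Within members' windows the CREs sat in a narrow zone before the start. Of 67 CRE sites, 25 had their centre 51 to 100 bp upstream (37.3%) and 29 lay 1 to 50 bp upstream (43.3%). In all windows the shares of the same zones were 28.7% and 40.1%, so much of this zone is a property of CREs in promoters at large. The share of windows with a CRE differed with the distance from the summit to the RefSeq start. It was 41.9% (32.3 to 51.9) for 105 peaks at up to 100 bp, 29.8% (17.3 to 44.9) for 47 at 101 to 200 bp, 11.8% (3.3 to 27.5) for 34 at 201 to 500 bp and 13.3% (1.66 to 40.5) for 15 at 501 to 1000 bp. Protein-coding starts had a CRE at 32.1% (25.1 to 39.8) of 165 and lncRNA starts at 30.6% (16.3 to 48.1) of 36, with overlapping intervals. The backgrounds differed, with a CRE in 2.25% of all protein-coding windows and 1.14% of all lncRNA windows.

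Peak strength differed little between the sequence classes. Members with a CRE (64 peaks) had a median fold of 5.69, those with a CRE core only (87) 5.50 and those with neither (50) 5.62. A −log10 q of at least 5 was reached by 43.8%, 42.5% and 38.0%. Grouped by fold, a CRE was present for 24.3% (14.8 to 36) of peaks below 5, 34.2% (23.5 to 46.3) from 5 to 7, 37.5% (22.7 to 54.2) from 7 to 10 and 38.9% (17.3 to 64.3) at 10 or more, with intervals that overlap throughout.

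By fold, the 15 leading members with a CRE covered several functions. PARP2 (23.5) makes ADP-ribose chains at DNA breaks, and VPS37B (18.4) has a pair of CREs in its window. LINC00265 (12.3), EMC3-AS1 (12.1) and LINC02606 (11.8) are noncoding genes. PGAP2 (12.1) takes part in the maturation of lipid anchors, and PEF1 (12) is a calcium-binding adaptor. They were followed by CCDC86 and SIVA1 (both 8.83), RBM42 (8.36), which binds RNA, and the shared start of TSTD2 and NCBP1 (8.36), the latter a subunit of the nuclear cap-binding complex. The zinc finger genes ZNF562 (8.03) and ZNF200 (7.83), NDUFA10 (7.71), a complex I subunit, and the shared start of DTL, whose window holds the CRE, and INTS7 (7.60), of the Integrator complex, closed the group. The peak at WFDC3 and DNTTIP1, also with a CRE, had the same fold as the last.

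Read from the promoter side, a TSS peak was present at 322 of 34789 windows, 0.926%. Every start within 1000 bp of a summit was counted, neighbouring and alternative starts included, so these 322 windows go back to at most 264 peaks. Windows that share a peak are not independent, and the intervals from the promoter side do not allow for this. Of the windows counted here with a CRE, 62 were the nearest window of a TSS peak. With a CRE the count was 85 of 641, 13.3% (10.7 to 16.1), with a CRE core only 140 of 7872, 1.78% (1.5 to 2.10), and with neither 97 of 26276, 0.369% (0.299 to 0.450). Most promoters with a CRE therefore had no called peak in this library, where most peaks rest on few fragments. CpG content divided them further. Among CpG-rich windows with a CRE 15.4% (12.5 to 18.7) had a peak, and among CpG-poor windows with a CRE 2 of 102 did, 1.96% (0.238 to 6.90). With neither motif the shares were 0.735% and 0.105%. DNA methylation was not measured here.

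**Figure D5:**
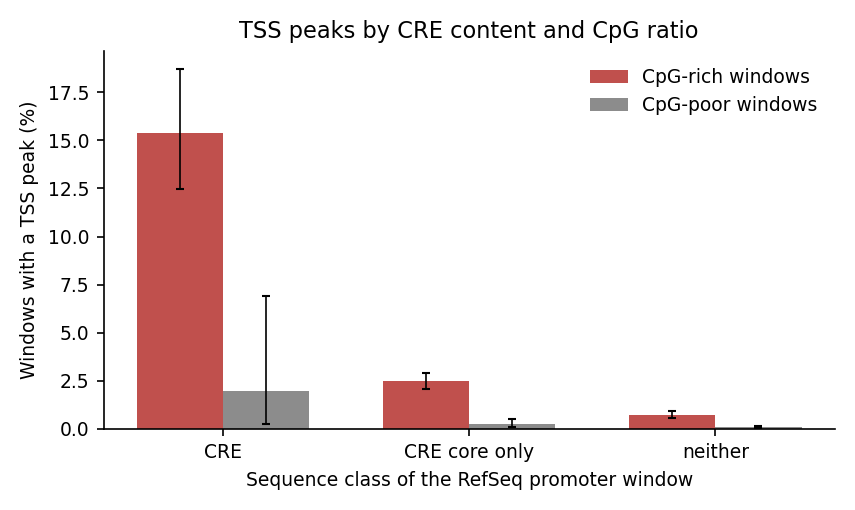
Share of RefSeq promoter windows with a TSS peak in percent (vertical axis) by sequence class (horizontal axis) and CpG ratio, with exact 95% intervals. CpG-rich windows with a CRE reach 15.4%, CpG-poor windows with a CRE 1.96%, and windows with neither motif stay below 1%.

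The number of motifs and the bases beside them went along with the share of promoters that had a peak. It was 12.6% (10.1 to 15.5) of windows with 1 CRE and 7 of 21 windows with 2 or more, 33.3% (14.6 to 57.0). Of these 7, 5 were the nearest window of a TSS peak. Without a CRE the share was 1.17% with 1 CRE core, 4.33% with 2 and 5.33% with 3 or more. CREs with G before and C after had a peak in 21% (14.9 to 28.2) of 157 windows, those with 1 of these bases in 12.3% (8.65 to 16.7) of 277, and those with neither in 8.78% (5.29 to 13.5) of 205. Within CpG-rich windows alone the shares were 22.2%, 14.5% and 10.6%.

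The run GAAG joined to a CRE core, GAAGTGACG, was singled out after the 8-mers had been seen, and needs fewer letters of the ETS motif than the CCGGAAG searched above. It stood in 29 members' windows, 14.7% (10.1 to 20.5), 8 of them also with a CRE, against 0.816% of all windows and 1.55% of CpG-rich ones. From the promoter side, 30 of 249 windows with the joined letters and no CRE had a TSS peak, 12% (8.28 to 16.8). This compares with 1.44% (1.19 to 1.74) of windows with a CRE core that was not joined and no CRE, and with 0.527% (0.272 to 0.918) of windows with CCGGAAG, the longer ETS motif, and no CRE core. With a CRE as well it was 14 of 35, 40.0% (23.9 to 57.9), and 8 of these 14 were the nearest window of a TSS peak. Members of this kind included VMP1, ZFPL1, PEF1, ZNF562, TSG101, ZNF561 and KAT5, and their median fold was 5.6.

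Divergent starts, read in opposite directions, were frequent at promoters with a TSS peak. Of the 322 windows with a TSS peak, 156 had another RefSeq start on the opposite strand, pointing away, within 1000 bp, 48.4% (42.9 to 54.1), against 17.9% of all windows. Among CpG-rich windows it was 49.3% against 31.2%. A peak between a divergent pair can be counted at both starts, which raises this share. In the authors' own table, 57 of 264 TSS peaks (21.6%) lay at a divergent pair, 29 of them with both genes protein-coding, and the median gap between the starts was 172 bp. In 29 the summit lay between the starts. PARP2 shares its start region with RPPH1, the RNA of ribonuclease P, over 224 bp. VMP1 lies 56 bp from PTRH2, ZFPL1 182 bp from CDCA5, PGAP2 170 bp from NUP98, and NCBP1 55 bp from TSTD2. Which gene of a pair a peak belongs to cannot be read from its position.

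Gene groups were described from 23 lists with 816 distinct genes, drawn up with earlier results of these data known, so their counts are descriptions. In all, 45 list genes (5.51%) had a TSS peak, beside 1.33% of protein-coding genes, and 21 lists had at least 1. Some list genes share a peak with each other or with a nearer gene, so they are not all separate peaks.

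The endosomal sorting list had the most, 7 of 36 genes. These genes build the ESCRT machinery, which folds membrane away from the cytoplasm to sort receptors for degradation. VPS37B (64 fragments, 49.3 to 81.7) and TSG101 (fold 7.71, 9 fragments) are subunits of the first complex, SNF8 (6.70) of the second, and VPS4B (7.83) is the ATPase that takes the last one apart. SNX16 (17.7), PEF1 (12) and STAMBP (12), a deubiquitinase at endosomes, are partners of the pathway. In the windows of those that had one, VPS37B and PEF1 had a CRE and TSG101, SNF8 and VPS4B a CRE core only. Of the autophagy list, VMP1 was the 1 member of 27.

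Genes of the nucleus and of cell division followed. Of 28 nuclear pore genes 4 had a TSS peak: NUP98 (fold 12.1), whose peak it shares with PGAP2, NUP133 and NUP214 (both 5.50, 6 fragments) and NUP153 (3.76, 4 fragments). NUP133 and NUP214 have a CRE in the window and NUP153 a CRE core only. Of 38 genes of mitosis and cohesin 4 had one. They were CDCA5 (12.2), which protects cohesin, CDC27 (7.51) and ANAPC10 (6.08), both of the anaphase-promoting complex, and NDC80 (7.22), of the kinetochore. The peaks of CDCA5, ANAPC10 and NDC80 lie nearer to the starts of ZFPL1, ABCE1 and METTL4. Single members came from DNA repair (PARP2, 1 of 45), DNA replication (RFC3, a clamp loader subunit, fold 5.62, 1 of 39), the RNA polymerase II machinery (GTF2H3, 5.30, 1 of 47) and chromatin regulators (the acetyltransferase KAT5, 6.41, 1 of 42). Of 40 splicing genes, SRSF11 (8.36) and CWC22 (4.01) had one.

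Protein turnover, mitochondria and translation gave small counts. For the proteasome list it was 3 of 33, with TPP2 (10.4), a large peptidase, PSMD3 (7.27) of the regulatory particle and PSMB2 (4.82) of the core. Of 41 respiratory chain genes, NDUFA10 (7.71), NDUFB5 (4.81) and COX7C (4.01) had one. NDUFB5 shares its peak with MRPL47, which together with MRPL55 (9.63) made up 2 of 35 genes of the mitochondrial ribosome. For cytosolic ribosomal proteins it was 1 of 40, RPL9 (6.42), on a start shared with LIAS. EEF1A1 and EIF2B1 (5.30) were 2 of 42 translation factors, METTL1 (10.3), which methylates tRNA, 1 of 40 genes for tRNA, and FBXW7 1 of 43 ubiquitin ligases and deubiquitinases. EIF2B1 shares its peak with GTF2H3, and FBXW7 with MIR4453HG. Of 44 genes of Golgi transport, COPE (5.46), COG5 (5.07) and BET1 (4.82) had one, and PGK1 was 1 of 19 glycolytic genes. The COPE peak lies nearer to the start of DDX49.

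Among 45 known CREB-responsive genes 3 had a TSS peak, 6.67% (1.40 to 18.3), beside 1.33% of protein-coding genes. The share of all list genes was 5.51%, from lists drawn up with earlier results of these data known. All 3 are of the immediate early kind that a stimulus induces within minutes. FOS had 8 fragments (3.45 to 15.8) with the summit 92 bp upstream of its TSS, a fold of 6.69, at chr14:75278554-75278778. FOSB and EGR1 had 5 fragments each (1.62 to 11.7), both with a fold of 4.82. Each window holds a CRE core and no CRE, and the CRE core lies 30 bp from the summit at FOS, 121 bp at FOSB and 136 bp at EGR1. The window holds a CRE for 7 other genes of that list, CREM, DUSP1, SST, VGF, CCNA2, CGA and CHGA, and none of these had a TSS peak. Over all lists, 38 genes had a window with a CRE and 9 of them a TSS peak there.

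CREB1 itself, MYCN and CAMKV had no TSS peak, and their windows hold no CRE core. For CAMKV the nearest summit lay 7796 bp from the TSS. That peak had a fold of 79.0, higher than every TSS peak except EEF1A1. None of the 14 genes of the CREB family and its coactivators had one. In cAMP and calcium signalling it was 2 of 41, PDE7A (6.42), which degrades cAMP, and CAMK2N2 (4.01), an inhibitor of a calmodulin kinase. Of 23 neuroblastoma lineage genes MAOA (4.90), an enzyme that breaks down monoamines, had one, and of 19 markers of other cell lineages none. Peaks do not measure RNA, so the cell line's identity was not checked against its markers.

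Zinc finger genes were looked at after their names recurred among members with a CRE. Of 9 members with a ZNF or ZBTB symbol, 6 had a CRE in the window, beside 31.5% of the windows of all TSS peaks, but the group was picked for this and the count restates the choice. ZNF266 (fold 5.32), ZNF561 (6.84) and ZNF562 (8.03) are neighbours on chromosome 19, with peaks between positions 9435608 and 9675316. The windows nearest these peaks each hold a CRE and the joined letters GAAGTGACG. For ZNF266 that window is at the start of LOC105372269.

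Some TSS peaks sit where the assignment of reads may be uncertain, although a dense window does not by itself show this. In dense windows lay 13, of which 7 are at USP17L genes, a tandem family on chromosome 4 with folds from 3.80 to 7.22. The others there were MRPL55 (9.63), IBA57 (6.41), GUK1 (5.62, with a CRE), RNA5S9 (5.13), GPR89A (4.82) and REXO1L2P (4.11). The USP17L, 5S rRNA and REXO1L copies are nearly identical in sequence. Outside dense windows, further TSS peaks lay at pseudogenes, among them SEPTIN7P14, GTF2IP20, SEPTIN7P2 and STAG3L3. FAM230H, CBWD3, CBWD5 and SNAR-A1, also outside them, belong to gene families. Read assignment was not checked at any of these. The TSS peaks within reach of 4 or more symbols were the USP17L24 peak, with 8 symbols (fold 4.82), and the peak at LOC105373759 and HNRNPA3 (9.88).

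The expected background was 1 fragment or more at 9 TSS peaks, and 6 of these were on chromosome 12. At TSPAN31, METTL1, CPSF6, CCT2, LOC101593348 and VPS37B it was 2.21 to 3.16 fragments. At the other 10 members on that chromosome it was 0.246 to 0.386. Of the remaining 3, ROCK1P1, a pseudogene on chromosome 18, had a pair of peaks at 5.24 and 29.4 and ZNF593 had 1.58. A fold at these peaks rests on more fragments than the same fold elsewhere, as at CPSF6 and CCT2, each with 17 fragments for a fold of 5.6. What the background contributes to these folds was not tested.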

How the data were processed

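The samples were 1 CREB ChIP library and 1 input library of NGP cells, and the 2 files analysed, a peak list and a table that pairs peaks with TSS, belong to the ChIP library. The submitters' processing notes name Bowtie2, MACS2 and build hg38. Their versions and settings, duplicate handling and library depth were not given in the sources used here. The deposited peak list holds for each peak a ratio (its fold enrichment over background), −log10 values of p and q (lowest −log10 q 1.32) and a score, as the narrowPeak layout defines them. The deposited score repeats the −log10 q and was not used to rank peaks. The input enters only through the authors' peak calls.

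To recover the fragments per summit, p was read as the upper tail of a Poisson distribution, and fold as the pileup plus 1 divided by the background plus 1. Whole fragments met the −log10 p within 0.001 (within a relative 1e-05 from a −log10 p of 100) in 5283 of 5285 peaks and in all 264 TSS peaks. Recovery and motif search were tested on simulated data. Promoter windows, gene names and biotypes came from RefSeq tables of GRCh38.p14, matched by position and symbol. The motif and 8-mer counts used python 3.11.15, numpy 2.4.6, pandas 2.3.3 and scipy 1.17.1, with exact Poisson and Clopper-Pearson intervals at 95%. No test was run, since there is 1 library and peaks are not replicates.

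The members, lists, motifs and alternatives were chosen with earlier results of these data known. Genes were named by a rule: the nearest gene of the 20 TSS peaks of highest fold, up to 4 members per list, up to 15 members with a CRE, the 3 peaks on each side of 1000 bp, up to 10 members in dense windows, those in reach of 4 or more symbols, and CREB1, CAMKV, MYCN and FOS. Other genes named, the joined letters GAAGTGACG, the bases beside the CRE, the zinc finger genes, the background on chromosome 12 and the comparison with CpG-rich windows were chosen after values were seen. Alternatives were other distances, a −log10 q of at least 5, leaving out dense windows or the strongest peak, and other promoter windows.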

Additional observations from a re-analysis of the deposited data

How the results depend on the processing

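Of 31 alternative settings, 9 moved a value beyond the limits set for it and 22 did not. A reversal was defined only for the fold ratio, the upstream share, the motif shares and the CpG ratio, and none of these reversed. For the counts, the share within 200 bp and the divergent share it was not defined. The count of TSS peaks was 185 within 200 bp, 230 within 500 bp and 324 within 2000 bp, in place of 264. A −log10 q of at least 5 left 111 of 264 TSS peaks and 26 of 45 list genes, and raised the share of summits upstream from 59.8% to 66.7%. The ratio of the median fold of TSS peaks to that of other peaks was 1.09, became 1.05 with that q, and 1.23 without dense windows. With the summit inside the promoter window, the CRE share was 40.8% in place of 31.5%, the CRE core share 88.8% in place of 75.1%, and the median CpG ratio 0.924 in place of 0.894. Divergent starts within 300 bp gave 34.2% in place of 48.4%, against 13.2% of all windows. With the window shortened to 150 bp before the start, the CRE share was 29.9% against 1.60% of all windows. No paired analysis was possible because there is 1 ChIP library and 1 input library, and no test was run. Most TSS peaks hold 9 fragments or fewer, so a promoter without a peak may lie under what this library could detect, and no value has an error between cultures. Library depth was not given, and depth and enrichment cannot be told apart here.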

Other observations

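Peaks at starts that the authors' table does not use form a further small group. Beyond the 264 TSS peaks, 22 peaks had their summit within 1000 bp of a RefSeq start that the table did not pair with them at that distance, 15 of them at protein-coding genes. Their median fold was 4.70. A CRE was in the window of 1 of the 22, at ACOX3, an enzyme of peroxisomal fat breakdown (fold 4.56), which is 4.55% (0.115 to 22.8), and a CRE or CRE core in 10. The strongest lay at UBB, a polyubiquitin gene (fold 14.9, 28 fragments), ARAP1, a regulator of small GTPases (12.8, 15 fragments), TPM3, a tropomyosin (8.26, 10 fragments), and PDE4C, a phosphodiesterase that degrades cAMP (7.89, 9 fragments). PRKAR1A, the regulatory subunit of the cAMP-dependent kinase that phosphorylates CREB, had a peak of 5 fragments with a fold of 4.56 at such a start, 343 bp away, and the window there holds a CRE core only. These genes were chosen after their values were seen.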
